A study of Mus musculus with 6 samples.

Results

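Carbonic anhydrases are zinc enzymes that convert carbon dioxide and water to bicarbonate and a proton, and back. Of the 9 mouse carbonic anhydrase genes considered here, 8 were among the 23718 genes with values, chosen by gene symbol: Car2, Car3, Car8, Car9, Car11, Car12, Car13 and Car14. No values of the ninth, Car4, were analysed here. The family was put forward because of the difference in Car2 between the groups, so the values of Car2 in that comparison are given as a description. No test of Car2 is read as a result. RNA was sequenced from regions cut by laser capture microdissection out of incisors of mice 1 month old, with 3 mesenchymal stem cell (MSC) and 3 transit amplifying cell (TAC) libraries. MSC libraries are from Gli1-CreER;tdT animals and TAC libraries from Axin2-CreER;tdT animals, all labelled as strain C57BL/6 while the study's methods speak of a mixed background. In both lines tamoxifen, given 1 day before collection, lets the Cre switch on the red tdTomato reporter in cells with an active Gli1 or Axin2 driver. A captured region can hold neighbouring cells as well, and fewer cells of a type and less RNA per cell cannot be told apart in it. The methods give 3 mice per group, and nothing ties a library to a single animal, so p-values measure only the spread between these libraries.

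The family falls into 3 kinds. Car2, Car3 and Car13 encode cytosolic enzymes, of which Car2 is among the fastest and Car3 is slow and abundant in muscle and fat. Car9, Car12 and Car14 span the cell membrane with the catalytic domain outside, and Car9 and Car12 are known targets of hypoxia. Car8 and Car11 are carbonic anhydrase-related proteins that lack the activity. In mineralized tissue these enzymes supply protons to bone-resorbing osteoclasts and bicarbonate to enamel-forming ameloblasts, which face acid released as mineral grows.

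Values are the deposited ones, an estimated read number plus 1 scaled per library, so a gene with no read is listed at the lowest value of its library. Where 3 values of a group are given, they are in the order of replicates 1, 2 and 3. Estimated reads ran from 20203159 to 25567244 in replicates 1 and 2 of both groups, and were 59793645 and 108156380 in MSC and TAC replicate 3. Replicate 3 stood apart in both groups. No read was found for 43.0% of genes in MSC replicate 3 and for 28.1% in TAC replicate 3, against 6.65% to 8.12% in the other libraries. The difference of each tested member of the family is therefore also given within replicates 1 and 2 and within replicate 3. The latter has 1 library per group and no test. For other genes the fitted difference is over all libraries unless stated. The levels of the population markers overlapped between the groups. Gli1 was 256, 245 and 422 in MSCs and 153, 141 and 396 in TACs, Axin2 was 58.3, 48.0 and 12.0 against 56.8, 63.9 and 34.1, and the proliferation marker Mki67 was 137, 130 and 41.5 against 593, 630 and 122. At the same replicate number Gli1 was lower in TAC in 3 of 3 pairs, and Mki67 was 4.33, 4.84 and 2.94 times as high in TAC. Its log2 difference of 1.97 had a limma adjusted p of 0.361, and of 0.0442 with the replicate number as a block, a fit that called 1.49% of all genes.

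Per kilobase of exon, Car2 and Car12 were the carbonic anhydrases with the highest mean levels in TACs, and Car11 had the highest mean in MSCs. Car2, Car3, Car12 and Car13 were higher in every TAC library than in any MSC library, while Car14 was higher in every MSC library than in any TAC library. Groups that do not overlap with TAC higher were found for 12.3% of the 15391 genes tested, and with MSC higher for 12.2%, or 24.5% in either direction. Of the 8 genes, 6 had the mean of at least 1 needed for testing, and of the 5 tested beside Car2, 0 passed a limma adjusted p-value of 0.05. Over all genes tested the share past that threshold was 0.422%, with 0.039% higher in TAC and 0.383% higher in MSC. An unadjusted limma p-value under 0.05 was reached by 2 of the 5, Car3 and Car12, with TAC higher, and by 0 with MSC higher, beside 5.42% and 6.43% of all genes. In limma voom on estimated reads it was reached by 1 of the 5, Car12, beside 23.2% of all genes. Car3 reached the testing mean only through its TAC libraries, as its MSC mean was 0.662. As the family was chosen from this comparison and 2 of its genes were too low to test, nothing is read from these counts.

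**Figure D1:**
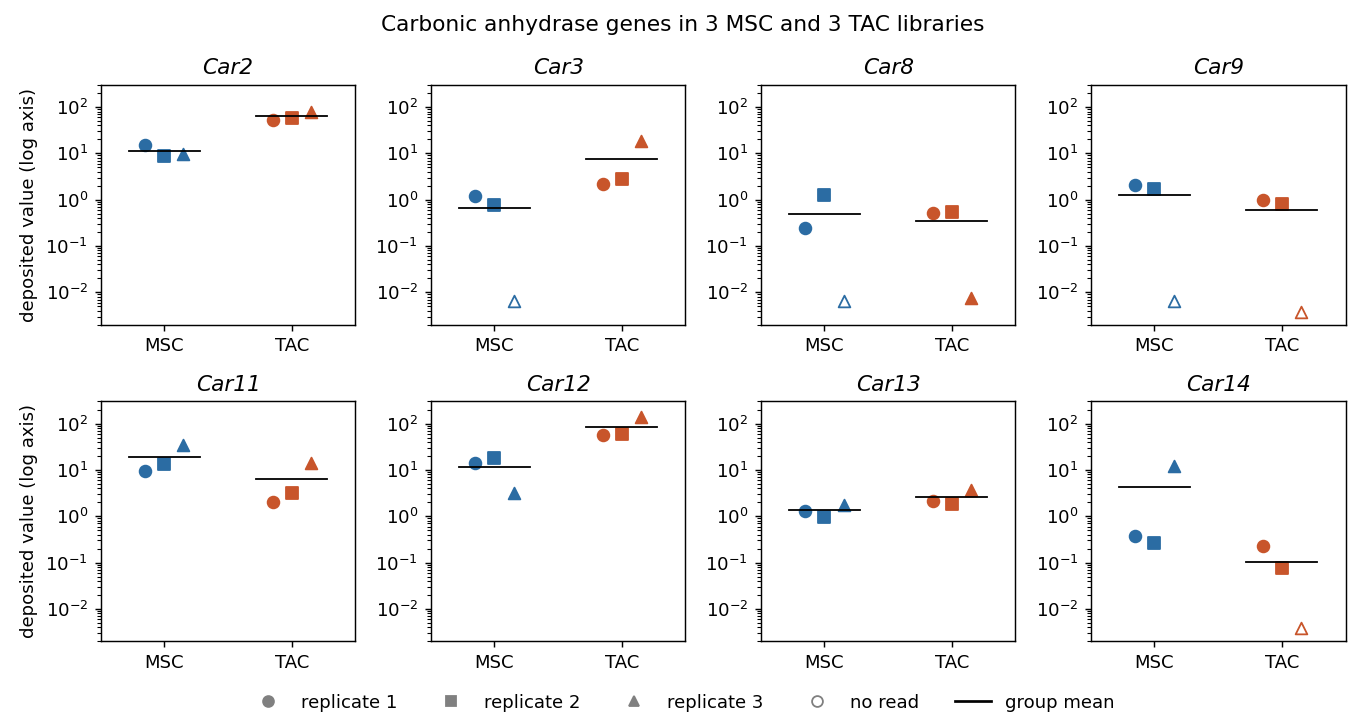
Deposited values (log axis) of the 8 carbonic anhydrase genes in each MSC and TAC library, with a marker shape for each replicate number, open markers for libraries with no read and a bar at the group mean. The 3 TAC values of Car2 lie between 53.0 and 77.9 and the 3 MSC values between 8.66 and 15.1. For Car3, Car9 and Car14 the replicate 3 markers lie far from the other two of their group.

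Among the cytosolic enzymes, Car2 (chromosome 3, 14886273 to 14900770, plus strand, mm10) was 15.1, 8.66 and 9.59 in MSCs and 53.0, 56.7 and 77.9 in TACs. Its lowest TAC value was thus well above its highest MSC value, and replicate 3 fell with the other libraries of its group. The mean was 11.1 ± 3.50 (SD, n = 3) in MSCs and 62.5 ± 13.5 (SD, n = 3) in TACs, a ratio of 5.62. Between same-numbered libraries the TAC value was 3.50, 6.54 and 8.12 times the MSC value. On the scale log2(value + 1), which understates the change of low genes, the difference was 2.41 (SE 0.33), with 2.16 within replicates 1 and 2 and 2.90 within replicate 3. At least 298 estimated reads lay behind each of these values.

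Car3 (chromosome 3, 14863512 to 14872523, plus strand) had low values in 5 of the 6 libraries. In MSCs it was 1.23, 0.753 and no read. In TACs it was 2.17, 2.73 and 18.3, the last from 4819 estimated reads. Each TAC value lay above each MSC value, and the gap was widest in replicate 3. The ratio of same-numbered libraries was 1.77 and 3.63 in replicates 1 and 2, and in replicate 3 TAC was at least 915-fold higher, taking 3 reads as the limit for MSC replicate 3. That bound covers counting error only, and MSC replicate 3 had no read for 43.0% of genes. The log2 difference was 1.95 (SE 0.81, limma adjusted p 0.408), 0.80 within replicates 1 and 2 and 4.26 within replicate 3. Markers of the tissues best known for Car3 were low. Of 12 skeletal muscle genes 8 had values and 1 reached the testing mean, with summed values of 1.76 to 7.91 in MSCs and 2.81 to 3.57 in TACs. Of 9 adipocyte genes 4 had values, not Adipoq, Cfd, Lep, Cidec or Retn, with sums of 6.00 to 7.74 in MSCs and 0.406 to 1.68 in TACs.

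Car13 (chromosome 3, 14641727 to 14663002, plus strand) was 1.31, 0.956 and 1.74 in MSCs and 2.15, 1.85 and 3.69 in TACs. The groups did not overlap, yet the gap between the highest MSC and the lowest TAC value was small beside the spread inside each group. The means were 1.34 ± 0.395 (SD, n = 3) and 2.56 ± 0.987 (SD, n = 3), and the log2 difference was 0.59 (SE 0.51, limma adjusted p 0.709). It was 0.49 within replicates 1 and 2 and 0.77 within replicate 3. The same-numbered ratios of 1.64, 1.93 and 2.11 were close to each other. Car13 was the tested gene of the family with the lowest mean over the 6 libraries, 1.95. Below the mean required stood Car9 at 0.941 and Car8 at 0.426.

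These 3 cytosolic genes are neighbours on chromosome 3. Car13, Car3 and Car2 lie on the plus strand between 14641727 and 14900770, with Car1 on the minus strand between Car13 and Car3. Car1 was not analysed here. No other GENCODE gene overlaps Car2, Car3 or Car13, and their values hold no reads of an overlapping annotated gene.

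**Figure D2:**
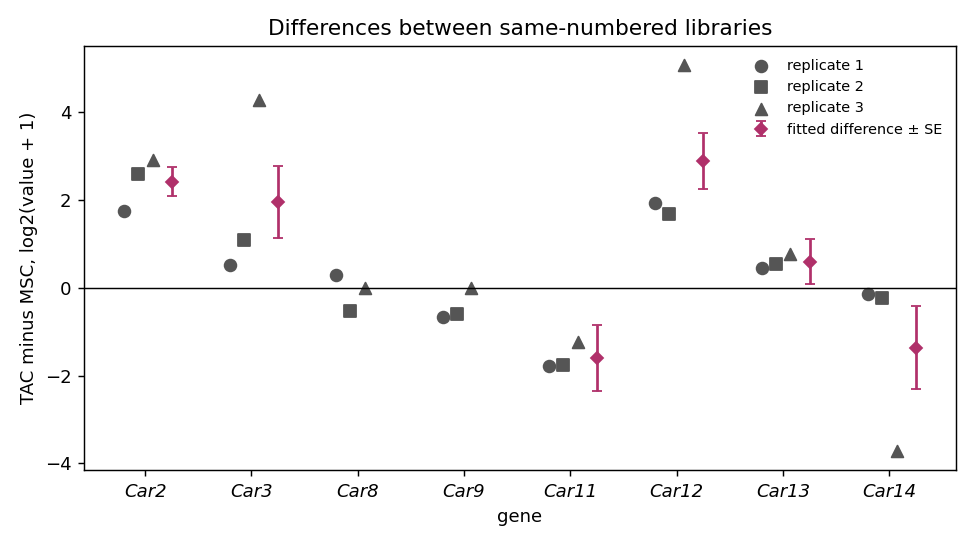
TAC minus MSC on the log2(value + 1) scale for each gene, as the 3 differences between same-numbered libraries (grey) and, for the 6 tested genes, the fitted difference with its SE. Car2, Car3, Car12 and Car13 lie above 0 and Car11 and Car14 below 0 at every replicate number. The replicate 3 differences of Car3 and Car12, at 4.26 and 5.06, and of Car14, at -3.72, are the farthest from 0 for these genes.

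The membrane enzyme Car12 (chromosome 9, 66713686 to 66766845, plus strand) was higher in TAC at each replicate number. It was 14.1, 17.7 and 3.20 in MSCs and 56.0, 58.4 and 139 in TACs. The groups were well apart in every replicate, and replicate 3 was both the lowest MSC library and the highest TAC library. The means were 11.7 ± 7.56 (SD, n = 3) and 84.4 ± 47.0 (SD, n = 3), a ratio of 7.23. TAC was 3.97, 3.30 and 43.4 times MSC at the same replicate number. The log2 difference was 2.88 (SE 0.64, limma adjusted p 0.142), which did not pass over all genes. It was 1.79 within replicates 1 and 2 and 5.06 within replicate 3.

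Car9 (chromosome 4, 43506966 to 43513729, plus strand), the other hypoxia-inducible member, was low. Replicate 3 of both groups had no read, and the first 2 replicates gave 2.12 and 1.74 in MSCs and 0.963 and 0.815 in TACs. In replicates 1 and 2 the MSC value was 2.20 and 2.13 times the TAC value, the opposite order to Car12. These values rest on 33 to 78 estimated reads, and no fold is given for replicate 3. The minus-strand gene Gm12454 overlaps Car9, and since the use of strand in counting is not given in the sources used here, its reads cannot be told apart from those of Car9 where they overlap. Gm12454 was 3.58, 2.90 and no read in MSCs and 0.876, 1.03 and 1.21 in TACs, so in replicates 1 and 2 it was also higher in MSC, by 4.09 and 2.81 times.

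Car14 (chromosome 3, 95897768 to 95904691, minus strand) was 0.370, 0.266 and 12.2 in MSCs and 0.232, 0.0758 and no read in TACs. Its level in MSC replicate 3, from 1830 estimated reads, was far above the other 5 libraries, which had at most 13 reads each. MSC was 1.60 and 3.51 times TAC in replicates 1 and 2 and at least 1072-fold higher in replicate 3, with 3 reads as the limit for TAC replicate 3. That bound covers counting error only, and TAC replicate 3 had no read for 28.1% of genes. The log2 difference was -1.37 (SE 0.94, limma adjusted p 0.635). It was -0.19 within replicates 1 and 2 and -3.72 within replicate 3, and Car14 reached the testing mean only through MSC replicate 3. Aph1a, a subunit gene of gamma-secretase on the opposite strand, overlaps Car14. Aph1a was 13.3, 11.2 and 13.7 in MSCs and 19.2, 18.3 and 33.6 in TACs, higher in TAC where Car14 was higher in MSC, and the part of its reads in the values of Car14 was not tested.

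The promoters of the hypoxia-inducible pair are shown because their values ran in opposite orders in replicates 1 and 2. RefSeq windows of 300 bases on GRCm38.p6, the mm10 build, were searched on both strands for the core letters of the hypoxia response element, ACGTG and GCGTG. Each window runs from 250 bases before a start site to 50 bases after it. Matches are in capitals.
Car12, chr9:66713436-66713735, plus strand: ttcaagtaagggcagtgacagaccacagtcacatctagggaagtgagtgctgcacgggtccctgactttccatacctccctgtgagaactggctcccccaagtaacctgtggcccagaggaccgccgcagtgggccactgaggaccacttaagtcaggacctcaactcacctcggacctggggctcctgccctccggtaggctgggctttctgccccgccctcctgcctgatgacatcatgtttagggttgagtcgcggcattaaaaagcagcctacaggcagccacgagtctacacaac
Car9, chr4:43506776-43507075, plus strand: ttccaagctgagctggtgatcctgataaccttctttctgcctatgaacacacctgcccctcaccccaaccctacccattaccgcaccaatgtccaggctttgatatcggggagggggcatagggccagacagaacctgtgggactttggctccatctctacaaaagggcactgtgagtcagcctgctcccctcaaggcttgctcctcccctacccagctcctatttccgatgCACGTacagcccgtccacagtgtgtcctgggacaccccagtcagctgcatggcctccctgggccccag
The Car9 window held 1 match, ACGTG read on the minus strand and beginning at position -18 from the start site. The Car12 window held 0. Of the other genes, Car14 had ACGTG at -7, Car4 had ACGTG at 3 and both start sites of Car11 had GCGTG, at -218 and 2, all read on the minus strand. Thus 5 of 6 windows of the 5 genes found among the RefSeq promoters held a match, against 43.8% of 32851 promoter windows. The match sequence ACGTG overlaps the E-box CACGTG, of which these windows held 0. A match of these letters is a description of the window and says nothing of binding.

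Among the related proteins without enzyme activity, Car11 (chromosome 7, 45699843 to 45704682, plus strand) was 9.59, 13.3 and 34.3 in MSCs and 2.06, 3.21 and 13.9 in TACs. The groups overlapped because TAC replicate 3 lay above MSC replicates 1 and 2, although each TAC value was below the MSC value with the same number. MSC was 4.66, 4.15 and 2.47 times TAC in replicates 1, 2 and 3. The means were 19.1 ± 13.3 (SD, n = 3) and 6.38 ± 6.52 (SD, n = 3), and the log2 difference was -1.60 (SE 0.74, limma adjusted p 0.459). It was -1.78 within replicates 1 and 2 and -1.25 within replicate 3. With the replicate number as a block the SE fell to 0.32 and the limma adjusted p was 0.0889, still short of the threshold. Over 17 alternatives that p ran from 0.000624 to 0.827. It passed in 1 of them, replicates 1 and 2 only, where 6796 of 15391 genes passed. Car8 (chromosome 4, 8143362 to 8239041, minus strand), known for regulating a calcium channel of the endoplasmic reticulum, was 0.240, 1.25 and no read in MSCs and 0.504, 0.551 and 1 read in TACs. It had at most 42 estimated reads in a library, and the groups overlapped. The pseudogene Gm11799 and the miRNA gene Gm25355 overlap Car8, and their part in its values was not tested.

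To compare levels between genes, values were divided by the kilobases of annotated exon. On this scale the family summed to 15.2, 14.7 and 27.8 in MSCs and to 32.6, 35.0 and 65.6 in TACs. Without Car2, the gene that chose the family, it was 8.96, 11.1 and 23.8 in MSCs and 10.8, 11.6 and 33.4 in TACs, and the groups overlapped. Car2 made up 41.1%, 24.4% and 14.3% of that sum in MSCs and 67.0%, 66.8% and 49.0% in TACs. Car11 made up 32.7%, 47.1% and 64.2% in MSCs and 3.27%, 4.76% and 11.0% in TACs. As Car2 is in that sum, the share of Car11 was also taken of the sum without it, and was 55.6%, 62.3% and 74.9% in MSCs and 9.92%, 14.3% and 21.6% in TACs. The shares of Car11 did not overlap on either base, while its values did. Car12 remained in both sums and was higher in every TAC library, which by itself lowers the share of Car11 there. Car12 took 12.2%, 15.9% and 1.52% in MSCs and 22.6%, 21.9% and 27.8% in TACs.

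In the order of levels per kilobase of exon, 3 of 7 neighbouring pairs were apart in TACs and 0 of 7 in MSCs. In TACs Car2 led at 25.8 ± 5.56 (SD, n = 3), then came Car12 at 11.1 ± 6.19 (SD, n = 3) and Car11 at 3.32 ± 3.39 (SD, n = 3), and these 3 did not overlap each other over the libraries. Car11 and Car3 overlapped, as did Car3 and Car13, Car9 and Car8, and Car8 and Car14, and each TAC value of Car13 lay above each one of Car9. In MSCs Car11 had the highest mean, 9.91 ± 6.92 (SD, n = 3), and Car2 the next, 4.60 ± 1.45 (SD, n = 3), and every neighbouring pair in the order overlapped. Car2 was the first gene in MSC replicate 1 and Car11 in MSC replicates 2 and 3. Car2 per kilobase was 3.36, 1.53 and 9.42 times Car12 in MSCs and 2.97, 3.05 and 1.76 times Car12 in TACs. On this scale Car2 was thus higher in all 6 libraries. That order rests on exon lengths of 2.422 kb for Car2 and 7.597 kb for Car12. Before division Car12 was above Car2 in each TAC library, at 56.0, 58.4 and 139 against 53.0, 56.7 and 77.9. It was also above Car2 in MSC replicate 2, and below it in MSC replicates 1 and 3.

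**Figure D3:**
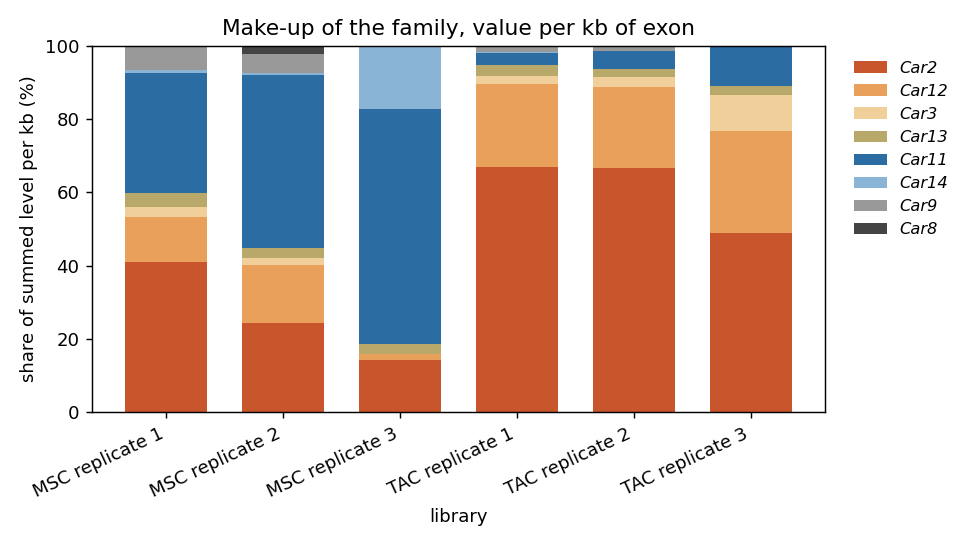
Share (%) of each gene in the family's summed value per kilobase of exon, 1 bar per library. Car2 and Car12 (orange) make up most of each TAC bar, and Car11 (blue) is 32.7% to 64.2% of the MSC bars against 3.27% to 11.0% of the TAC bars. Car14 is visible at 17.3% in MSC replicate 3.

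Other carbonic anhydrases added little. Car5b, which encodes a mitochondrial enzyme, was the only one of the other 4 genes with values that reached the testing mean, with a log2 difference of -0.54 (SE 0.65, limma adjusted p 0.818). Car7, Car10 and Car15 stayed below it, with group means of 0.0208 to 1.09. Car1, Car5a and Car6 were not analysed here.

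The genes whose log2 values followed Car2 most closely over the 6 libraries were Dctpp1, Ank, Sfxn1, Cdca3 and Rac1, with Pearson correlations of 0.994, 0.994, 0.993, 0.992 and 0.991. Dctpp1 breaks down modified dCTP, Ank controls the export of pyrophosphate, an inhibitor of mineralization, Sfxn1 carries serine into mitochondria, Cdca3 promotes entry into mitosis and Rac1 is a GTPase that acts on the actin cytoskeleton. Cdca3, for example, was 5.30, 4.23 and 3.29 in MSCs and 22.9, 26.8 and 34.4 in TACs, a pattern with the groups apart and replicate 3 lowest in MSCs. Within the family the correlation with Car2 was 0.904 for Car12, 0.830 for Car3, 0.809 for Car13, -0.568 for Car14 and -0.624 for Car11. The points share group and library kind, and so these values only describe likeness over 6 libraries.

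Partners of the enzymes in acid-base handling, and genes of the hypoxia response, were taken from 5 lists of 89 genes. Of these 78 had values and 62 were tested. In limma 1 passed the adjusted threshold, Epas1 of the hypoxia response list, higher in MSC, and 0 did in the other lists. An unadjusted limma p-value under 0.05 was found for 7, or 11.3% against 11.9% of all genes tested. Bicarbonate transporters, which carry the product of the enzymes across membranes, had 11 genes tested and 0 past the adjusted threshold, with 1 past the unadjusted one in limma and 4 in limma voom, where 23.2% of all genes passed it. That gene was Slc4a3, a chloride and bicarbonate exchanger, at 80.3, 84.7 and 151 in MSCs and 28.2, 30.0 and 36.6 in TACs. Its groups were well apart, and its log2 difference was -1.65 (SE 0.33, limma adjusted p 0.108). With the replicate block it passed, at a limma adjusted p of 0.0442, and so did it without MSC replicate 3, at 0.0445. Its limma adjusted p over 17 alternatives lay between 1.295e-06 and 0.497, and 3 of them passed. The lowest was that of replicates 1 and 2 only, where 6796 of 15391 genes passed. Slc4a7, a sodium and bicarbonate cotransporter, was 14.9, 15.1 and no read in MSCs and 25.5, 24.7 and 16.3 in TACs (1.84, SE 1.05, limma adjusted p 0.559). The list's median log2 difference was 0.12, beside 0.026 for all genes tested. Slc4a2, the anion exchanger that works beside Car2 in osteoclasts, was 60.8, 53.2 and 46.1 in MSCs and 42.6, 39.2 and 45.9 in TACs (log2 difference -0.31, SE 0.25, limma adjusted p 0.693).

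Proton and lactate exporters had 15 genes tested, with 0 past the adjusted threshold and 4 past an unadjusted limma p-value of 0.05, 2 in each direction (5 in limma voom). Emb, an accessory chain of lactate transporters, was 7.24, 10.1 and 10.8 in MSCs and 29.3, 32.5 and 54.2 in TACs, a log2 difference of 1.90 (SE 0.36, limma adjusted p 0.104). Slc9a5, a sodium and proton exchanger, was 16.1, 16.0 and 17.6 against 28.1, 31.9 and 62.5 (1.17, SE 0.37, limma adjusted p 0.274). These 2 had groups that did not overlap, with TAC higher. With MSC higher and no overlap stood Slc9a3r2, a scaffold of sodium and proton exchangers, at a log2 difference of -1.59 (limma adjusted p 0.129), and the lactate transporter Slc16a7, at -1.82 (limma adjusted p 0.305). The list's median was -0.26.

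The vacuolar proton pump, which acidifies lysosomes and the space under osteoclasts, had 20 genes tested and 0 past either limma threshold, with 1 past the unadjusted one in limma voom. Its median was -0.092, and the summed values were 278 to 618 in MSCs and 263 to 539 in TACs, with replicate 3 highest in both groups. The hypoxia response list had 15 genes tested, a median of -0.025 and 7 of 15 differences above 0. Epas1, the HIF2 alpha factor, was 179, 181 and 193 in MSCs and 36.0, 34.0 and 16.3 in TACs, and its log2 difference was -2.71 (SE 0.35, limma adjusted p 0.0389). Under 17 other settings that p lay between 3.83e-08 and 0.235 and passed in 10. The lowest came from replicates 1 and 2 only, where 6796 of 15391 genes passed. The call was lost when either of the first 2 MSC replicates (0.235 and 0.228) or either of the first 2 TAC replicates (0.152 and 0.198) was left out, with median-ratio scaling (0.0518), without a variance trend (0.0848) and in limma voom (0.0534). Ndrg1 had a log2 difference of -0.61 (limma adjusted p 0.398) and Hif1a one of -0.36 (limma adjusted p 0.833). Hif1a was 40.9, 41.4 and 112 in MSCs and 55.3, 53.2 and 30.5 in TACs. Its difference changed sign, from 0.39 within replicates 1 and 2 to -1.85 within replicate 3. P4ha1, a collagen prolyl hydroxylase gene, was 23.4, 19.7 and 3.42 in MSCs and 28.9, 29.3 and 22.6 in TACs (1.08, limma adjusted p 0.580). Ldha, a glycolytic enzyme gene, was 25.7, 28.1 and 54.1 in MSCs and 52.2, 55.3 and 107 in TACs (0.97, limma adjusted p 0.424), and Vegfa was 116, 99.0 and 56.5 against 40.6, 39.1 and 72.5 (-0.82, limma adjusted p 0.470). The levels of P4ha1, Ldha and Vegfa overlapped between the groups, while at the same replicate number Ldha was 2.03, 1.97 and 1.98 times as high in TAC.

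**Figure D4:**
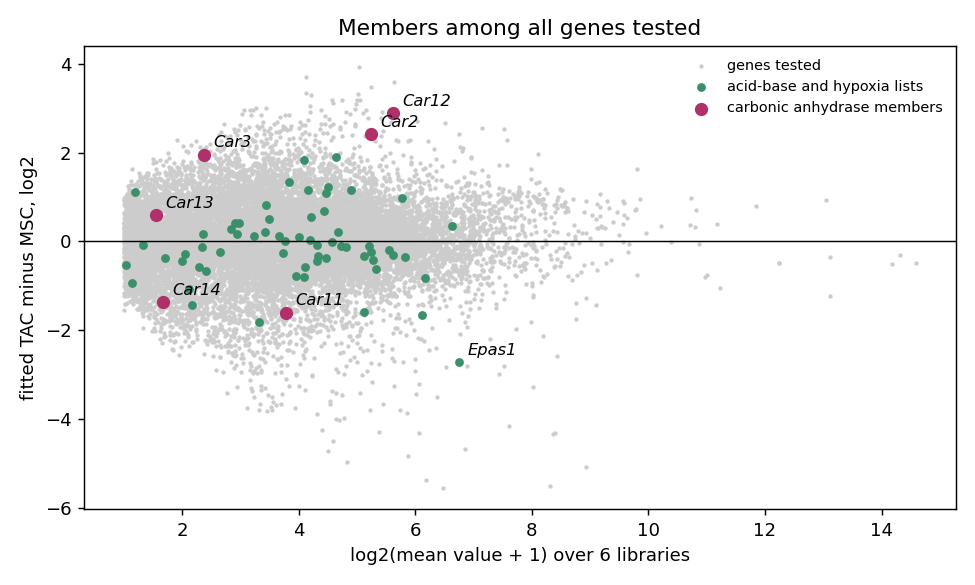
Fitted TAC minus MSC difference (log2) against log2 of the mean value + 1 for the 15391 genes tested (grey), with the 62 tested genes of the acid-base and hypoxia lists (green) and the 6 tested carbonic anhydrases (purple). Car12 at 2.88 and Car2 at 2.41 lie high among genes of their level, and Epas1 at -2.71 lies low.

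Markers of other cells known for these genes were set beside them, and none of these lists had a gene past the limma adjusted threshold. The unadjusted threshold, used below, was passed by 11.9% of all genes in limma (6.43% with MSC higher) and by 23.2% in limma voom. Osteoclasts use Car2. Of 13 osteoclast genes 10 had values, not Dcstamp, Ocstamp or Calcr, and the 9 tested had a median log2 difference of -0.43. Their sums were 109, 110 and 194 in MSCs and 71.7, 68.8 and 140 in TACs, with 2 past an unadjusted limma p-value of 0.05 (3 in limma voom). Both were higher in MSC, the matrix protease gene Mmp9, at 16.7, 18.1 and 21.3 in MSCs and 4.99, 4.32 and 1.05 in TACs (limma adjusted p 0.156), and the integrin gene Itgb3 (-2.20, limma adjusted p 0.285). The part of these cells in the values of Car2 was not tested. Red cells carry Car2, and 11 of 12 erythroid genes had values, with sums of 37.3 to 81.9 in MSCs and 58.3 to 79.1 in TACs, a median of 0.11 over 5 tested and 0 past the unadjusted threshold (1 in limma voom).

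Ameloblasts and dental epithelium use carbonic anhydrases as well. All 12 genes of that list had values and a log2 difference above 0, with a median of 1.01 and 1 gene, Epcam, past an unadjusted limma p-value of 0.05 (2 genes in limma voom). Among all genes 51.5% had a difference above 0. The summed list was 3718, 3658 and 336 in MSCs and 3323, 3389 and 2625 in TACs, so in replicates 1 and 2 it was higher in MSCs. Epcam was 1.23, 0.927 and no read in MSCs and 2.26, 4.03 and 6.68 in TACs, and Cdh1 was 3.65, 4.06 and no read against 6.72, 6.31 and 14.3. The list was not of 1 direction within each replicate number: 7 of 12 differences were above 0 within replicates 1 and 2, and 12 of 12 within replicate 3. The 5 below 0 within replicates 1 and 2 were genes of enamel formation, Amtn at -1.34, Klk4 at -0.77, Amelx at -0.21, Mmp20 at -0.08 and Enam at -0.07. Ambn and Odam, also enamel genes of the list, lay slightly above 0 there, at 0.026 and 0.013. Within replicate 3 Amtn, Odam and Klk4 had differences of 4.28, 4.04 and 4.93. The part of these cells in the differences of Car2 and Car12 was not tested. The 8 odontoblast genes had a median of 0.83, 0 past the unadjusted threshold (1 in limma voom), and sums of 14912, 14801 and 2371 in MSCs against 16016, 15943 and 12527 in TACs.

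Endothelial genes are set beside Epas1, a gene known to be abundant in endothelium. All 10 were tested, the median was -0.92, and 5 had an unadjusted limma p-value under 0.05, all higher in MSC (6 in limma voom). Their sums were 325, 338 and 372 in MSCs and 145, 146 and 144 in TACs. Vwf, the von Willebrand factor gene, was 91.1, 96.2 and 20.6 in MSCs and 6.31, 4.15 and 0.887 in TACs (-3.80, limma adjusted p 0.108), and the groups were apart in spite of the low MSC replicate 3. With the replicate block 1 of them, Vwf, passed the adjusted threshold, at a limma adjusted p of 0.0323. Their part in the difference of Epas1 was not tested. The 9 Schwann cell genes had sums of 67.6 to 161 in MSCs and 40.1 to 62.8 in TACs, with a median of -0.96 over 7 tested and 1 past the unadjusted limma threshold, Sox10 at -2.14 (4 in limma voom). The adipocyte list had 1 gene tested, Lpl, at -1.81 (limma adjusted p 0.194), past the unadjusted threshold in limma and limma voom. The skeletal muscle list had 1 gene tested, Tnnt3, at 4.32, 6.64 and 1.71 in MSCs and 0.985, 0.983 and 2.49 in TACs (limma adjusted p 0.582), past the unadjusted threshold in neither.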

How the data were processed

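RNA from laser-captured MSC and TAC regions (3 libraries each) was sequenced as single-end reads. The authors trimmed reads, aligned them to mm10 with TopHat2 2.0.8 and state normalization to RPKM, while the submitters' processing notes also name CASAVA 1.8.2 and Partek. The deposited signal is not RPKM: low values step in multiples of the lowest value of a library whatever the gene length, so each is an estimated read number plus 1 times a library factor. Of low values (under 200 reads) 63.0% to 70.6% per library were whole within 0.01 reads, so no count model was the main test. The test had been planned for normalized expression and was kept. Each listed gene reached 10 reads in some library. The deposited end was lowered by 1, after which 90.6% of the 22442 symbols found in GENCODE M21 had the same coordinates. The counting tool and strand use are not given in the sources used here.

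Values were taken as log2(value + 1), with genes of mean 1 or more over the 6 libraries, and fitted with limma 3.58.1 in R 4.3.3 (empirical Bayes with variance trend, TAC minus MSC, two-sided, Benjamini-Hochberg over 15391 genes, threshold 0.05). With 3 against 3 libraries an exact permutation test cannot go below 0.1, so none was run. The fit was tested on simulated data. The members and lists were chosen with earlier results of these data known. Named genes were all members, at most 4 genes per list (past the adjusted threshold, then the unadjusted one, then by size of difference), the population markers, and the 5 genes most correlated with Car2. Hif1a, Vegfa, Slc4a2, Ambn, Amtn, Klk4, Amelx, Mmp20 and Enam, and the overlapping genes Aph1a and Gm12454, were added after their values were seen. Deviations from the group means correlated across genes at 0.477, 0.466 and 0.517 for same-numbered libraries, and the methods speak of pairs of samples, so the numbers were taken as pairs. Crossed replicates 1 and 2 correlated as much (0.480 and 0.462), so the values set replicate 3 apart but do not tie 1 to 1 or 2 to 2. Blocked values are printed where they change a call. Each fold for a library with no read is a bound at 3 reads per library and covers counting error only. Exon lengths are the union of GENCODE M21 exons. Promoters are from RefSeq.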

Additional observations from a re-analysis of the deposited data

How the results depend on the processing

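All tested members kept their direction under every alternative that gave a value. For Car2, whose values chose the family, this is a description only. Leaving aside replicate 3 alone, whose values are given with each gene, their log2 differences lay for Car2 between 2.07 and 2.63, Car12 between 1.79 and 3.77, Car3 between 0.80 and 7.74, Car13 between 0.25 and 1.15, Car11 between -2.29 and -1.002 and Car14 between -7.72 and -0.19. The counts of calls depended on the setting, and the cause was not tested.

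Over all genes 65 passed (6 higher in TAC and 59 in MSC), against 38 with a pseudocount of 0.1, 23 with median-ratio scaling, 114 (27 and 87) with quantile normalization, 29 without a variance trend, 23 with limma voom on estimated reads, 229 (93 and 136) with the replicate block and 6796 in replicates 1 and 2 only. Leaving out 1 library gave 0 (each of MSC and TAC replicates 1 and 2, where 1028 to 1367 had an unadjusted p-value under 0.05), 36 (TAC replicate 3) and 292 (MSC replicate 3). Among the members other than Car2, 0 passed, also under each alternative but replicates 1 and 2 only. There 3 did (Car3, Car11 and Car12), beside 6796 of 15391 genes. An unadjusted limma p-value under 0.05 was reached by 1 to 3 of these members per setting. Over all genes tested it was reached by 1028 (without TAC replicate 2) to 7983 (replicates 1 and 2 only). The planned count includes Car2, whose values chose the family, and nothing is read from it. It was 1, also with the replicate block, against 0 with a pseudocount of 0.1, median-ratio scaling, no variance trend or limma voom, 4 in replicates 1 and 2 only, and 0 to 1 when 1 library was left out. Among the genes of the acid-base and hypoxia lists 1 passed, the hypoxia list gene Epas1. The count was 0 with median-ratio scaling, without a variance trend and with limma voom. There 6, 7 and 15 had an unadjusted limma p-value under 0.05, beside 1649, 1806 and 3575 of all genes. The count passing was 2 with the replicate block, 29 in replicates 1 and 2 only, and 0 to 2 when 1 library was left out. The block changed no other call of a member or acid-base gene. With a mean of at least 10, Car3, Car13 and Car14 could not be fitted. Car8 and Car9 had at most 78 estimated reads in a library, and 0 or 1 in the deeply sequenced replicate 3.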
